A study of Mus musculus with 16 samples.

Results

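Matrix metalloproteinases (MMPs) and their tissue inhibitors (TIMPs) were followed as a set of 9 genes out of the 23306 in the count table: Mmp2, Mmp7, Mmp10, Mmp11, Mmp14, Mmp15, Timp1, Timp2 and Timp3. The set was chosen by gene symbol because Mmp7 was higher after hormone, so the hormone values of Mmp7 are given as a description, with no test. All 9 genes had a row in the table and passed the filter on low values (a normalized count of at least 10 in at least 4 libraries).

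RNA was sequenced from organoids, small hollow cultures grown in vitro from the epithelial lining of the mouse uterus (the endometrium). Control organoids carried floxed Tgfbr2 alleles without Cre, and conditional knockout (cKO) organoids carried floxed Tgfbr2 together with PRcre, a Cre recombinase driven from the progesterone receptor gene. Tgfbr2 encodes a receptor for TGF-beta. Cre was present in the cKO only, so loss of Tgfbr2 and presence of Cre cannot be told apart. All organoids grew for 2 days before treatment. The hormone arm, written E2/MPA here, then had 2 days of the estrogen estradiol (E2, 10 nM) and 4 days of E2 at the same dose together with the synthetic progestin medroxyprogesterone acetate (MPA, 1 µM). The vehicle arm had 6 days of vehicle. Each of the 4 groups had 4 libraries: M1 to M4 were control vehicle, M5 to M8 cKO vehicle, M9 to M12 control E2/MPA and M13 to M16 cKO E2/MPA. Nothing in the labels ties a library to an animal, so the spread behind each p-value is that between libraries and may be technical.

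MMPs are zinc-dependent proteases that cut extracellular matrix, cell-surface proteins and growth factor carriers. Most are made as inactive proenzymes, either secreted or held in the membrane, and TIMPs block the active enzymes by binding their catalytic site. In the endometrium, matrilysin (the Mmp7 product) is known as an enzyme of the epithelium, while several other MMPs are made mainly by stromal fibroblasts. In human endometrium, progesterone is known to keep many MMPs low before menstruation.

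Depth was 14372111 to 20016836 recovered reads per library. Epithelial marker RNA was present in every library: the summed normalized count of 10 epithelial markers was 117573 to 191188, with no marker at 0, and was highest in M4, M8, M12 and M16 within their groups. Markers of macrophages and leukocytes also had none at 0, so this does not show that the libraries held epithelium alone. The targeted gene was not absent from the cKO: Tgfbr2 was 4852 to 8054 normalized counts in control vehicle and 3520.1 to 5439 in cKO vehicle (log2 difference -0.46, SE 0.21, adjusted p = 0.833). Under E2/MPA it was 4103 to 7794 in control and 3568 to 5526 in cKO (log2 difference -0.28, SE 0.21, adjusted p = 0.69), and the count covers the whole gene rather than the deleted part. Stromal RNA varied widely between libraries. The mean log2 level of 14 stromal fibroblast markers was 7.95 to 10.33 in 6 libraries (M1, M4, M8, M9, M12 and M16) and 4.27 to 6.57 in the other 10, and these 6 are called stroma-rich below. Every group held at least 1 of them, in control 2 per treatment and in cKO 1. Within control organoids the summed level of these markers was 875 to 57930 under vehicle and 1873 to 52873 under hormone. Within cKO organoids it was 1750.4 to 24296 and 2647 to 44919. Of the 14 markers 1, Postn, was itself called higher after hormone in control (log2 difference 6.17, adjusted p = 0.017). In cKO the Postn difference was 4.11 (adjusted p = 0.136). In bulk RNA, fewer cells of a type and less RNA per cell cannot be told apart.

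Mmp7 and Mmp10 lie in a cluster of 10 consecutive protein-coding MMP genes on mouse chromosome 9, in the order Mmp13, Mmp12, Mmp1b, Mmp3, Mmp1a, Mmp10, Mmp8, Mmp27, Mmp20, Mmp7 (RefSeq, GRCm38.p6). The RefSeq promoters of 4 genes are printed: the gene with the hormone difference that defined the set (Mmp7), its cluster neighbour with no such difference (Mmp10), and the genes whose intervals lay below 0 after hormone (Mmp11 and Mmp14). Each is the 250 bases before the annotated start, 5′ to 3′ on the gene's strand. Capitals mark matches, on either strand, to the 4 motifs searched. The AP-1 site was searched as TGANTCA and the hexamer bound by progesterone, androgen and glucocorticoid receptors as TGTTCT. The ETS site was searched as AGGAAG and the TATA box as TATAAA. Matches to different motifs did not overlap.
Mmp7, chr9:7691840-7692089, plus strand: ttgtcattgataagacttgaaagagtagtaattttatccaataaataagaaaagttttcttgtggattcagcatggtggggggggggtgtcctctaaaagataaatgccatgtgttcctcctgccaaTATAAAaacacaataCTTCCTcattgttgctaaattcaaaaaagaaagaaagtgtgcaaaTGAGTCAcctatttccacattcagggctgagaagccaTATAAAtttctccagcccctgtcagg
Mmp10, chr9:7502092-7502341, plus strand: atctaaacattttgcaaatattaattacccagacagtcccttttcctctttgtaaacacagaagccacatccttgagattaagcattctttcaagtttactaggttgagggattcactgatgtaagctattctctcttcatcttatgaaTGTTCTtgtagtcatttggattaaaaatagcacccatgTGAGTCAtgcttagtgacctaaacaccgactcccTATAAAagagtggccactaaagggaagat
Mmp11, chr10:75932503-75932752, minus strand: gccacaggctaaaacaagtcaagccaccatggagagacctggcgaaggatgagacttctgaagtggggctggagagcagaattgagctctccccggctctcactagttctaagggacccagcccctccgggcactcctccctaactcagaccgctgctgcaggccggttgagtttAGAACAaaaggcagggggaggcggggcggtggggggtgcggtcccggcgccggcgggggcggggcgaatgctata
Mmp14, chr14:54431348-54431597, plus strand: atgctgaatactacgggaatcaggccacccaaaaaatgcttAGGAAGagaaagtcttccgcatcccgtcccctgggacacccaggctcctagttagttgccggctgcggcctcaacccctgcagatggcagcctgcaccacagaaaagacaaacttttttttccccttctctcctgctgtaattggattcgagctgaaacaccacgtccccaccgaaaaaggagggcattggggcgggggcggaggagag

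Mmp7 and Mmp10 shared the same AP-1 letters, TGAGTCA, at the same place, starting 63 bases upstream of each start. Each also had a TATA box, starting 26 bases upstream in Mmp7 and 29 bases upstream in Mmp10. Beyond these shared letters the promoters differed: Mmp7 had an ETS site at 108 bases and another TATA box at 123 bases, and Mmp10 had a steroid receptor hexamer at 101 bases. RefSeq gives Mmp7 another start, downstream of the one printed. Its window (chr9:7692091-7692340, not printed) held hexamer matches at 232 and 193 bases and an ETS site at 142 bases before that other start. This window lies after the first Mmp7 start. Hexamer letters thus occur near both genes, before the start in Mmp10 and after the first start in Mmp7. The Mmp11 window held only a hexamer match, at 75 bases, and the Mmp14 window only an ETS site, at 209 bases. Among 32851 mouse promoter windows of the same length, 6.75% held the AP-1 site, 16.1% the hexamer, 29.5% the ETS site and 12.4% the TATA box. The full steroid response element, an inverted pair of such hexamers with a spacer, was found in 0.0609% of promoters and in none of the 8 genes' windows. RefSeq promoters were matched for 8 of the 9 genes. For Mmp10, Mmp14 and the other Mmp7 start the bases after the RefSeq start were not found in a GENCODE M21 transcript of the gene. A match to these letters is a description of the sequence and not evidence that a factor binds there.

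Mmp7 encodes matrilysin, a small secreted protease that cuts matrix, syndecan-1, E-cadherin and Fas ligand. Its normalized counts were 2572, 3683, 4183 and 1335 in control vehicle (M1 to M4) and 14016, 6969.8, 8378 and 8613 in control E2/MPA (M9 to M12). In the cKO they were 3527, 3994, 3862 and 1968 under vehicle (M5 to M8) and 15127, 11557, 14551 and 16431 under E2/MPA (M13 to M16). Every hormone-treated library was above every vehicle library of its genotype. The lowest vehicle libraries were the stroma-rich M4 and M8, and the highest E2/MPA libraries were the stroma-rich M9 and M16. Group means were 2943 ± 1266 (SD, n = 4) and 9494 ± 3100.5 in control, and 3338 ± 934 and 14416 ± 2062 in cKO. On the log2(value + 1) scale the hormone difference was 1.76 in control (SE 0.32, 95% interval 1.07 to 2.45) and 2.15 in cKO (SE 0.32, 95% interval 1.46 to 2.84). These are 3.40-fold and 4.44-fold. This difference chose the set and has no test, and for reference 6.66% of the 16509 genes tested were higher without overlap in control and 8.01% in cKO. Without the 6 stroma-rich libraries, which leaves 2 per control group and 3 per cKO group, the log2 difference was 0.96 in control and 1.85 in cKO. Mmp7 exons share 123 of 1068 bases with an antisense RNA, AV064505, which was not analysed here.

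**Figure D1:**
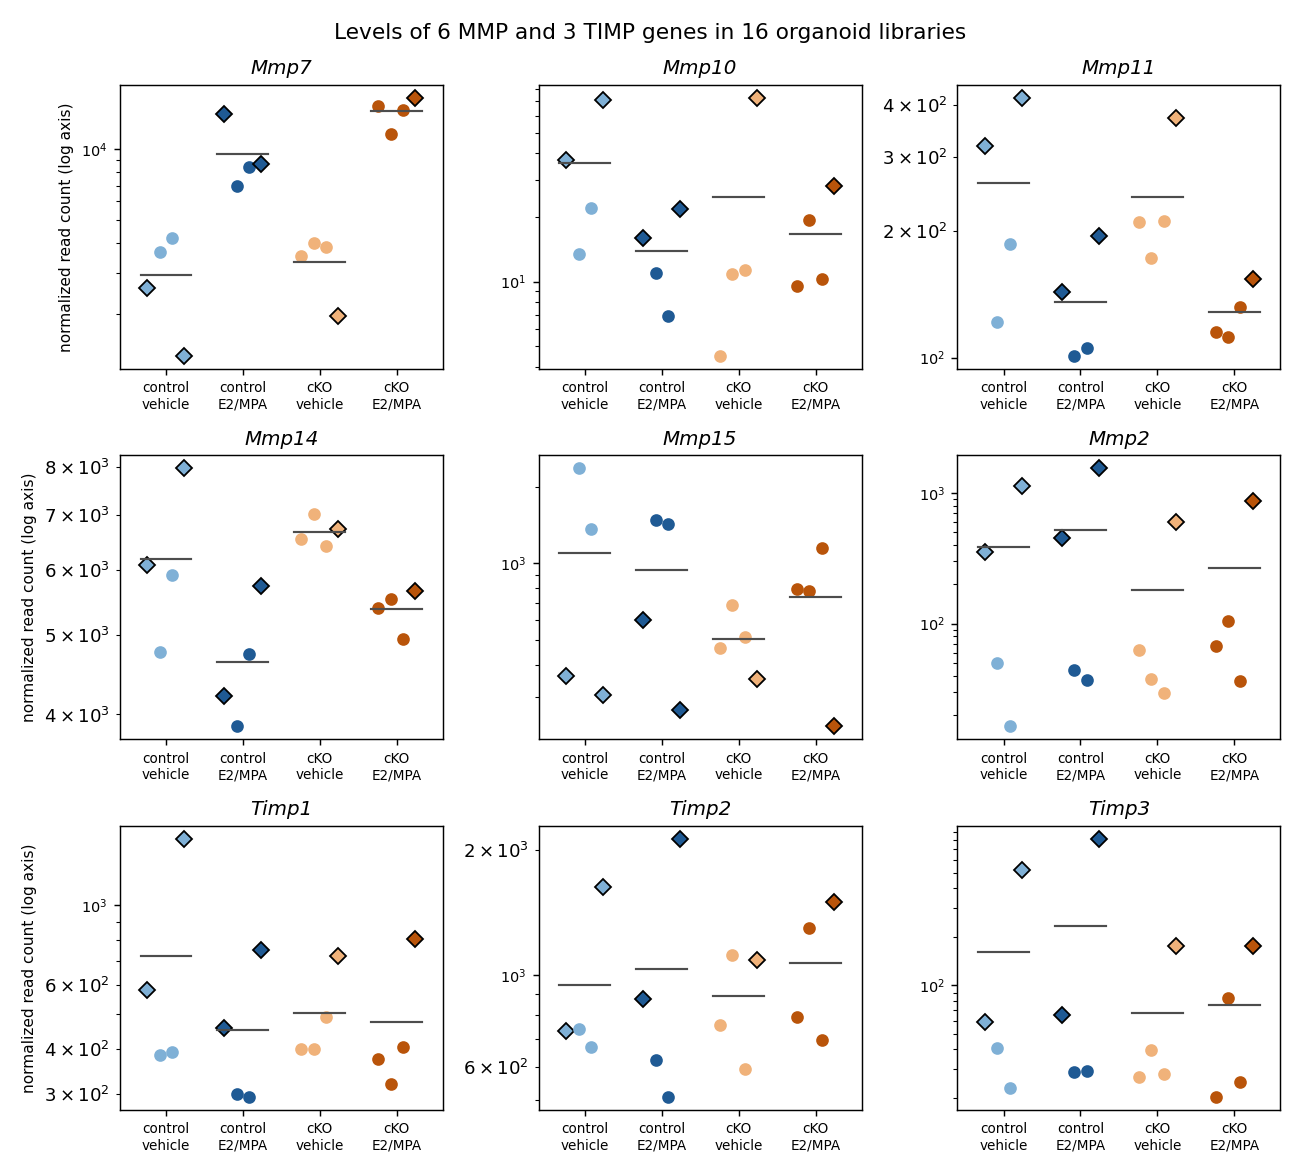
Normalized read count (log axis, a different range in each panel) of each of the 9 genes in the 16 libraries, by group. Each point is 1 library, outlined diamonds are the 6 stroma-rich libraries and horizontal lines are group means. Mmp7 is higher in every E2/MPA library than in any vehicle library of its genotype, and Mmp2 is high in the 6 diamonds alone.

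Mmp10 encodes stromelysin-2, a secreted protease that cuts matrix and can activate other proenzymes. It was the least abundant MMP of the set, at 37.2, 13.5, 22.1 and 71.2 normalized counts in control vehicle and 16.0, 11.0, 6.91 and 22.0 in control E2/MPA. In cKO it was 4.49, 10.9, 11.3 and 72.8 without hormone and 9.52, 19.4, 10.3 and 28.0 with E2/MPA. Treated and untreated groups overlapped in both genotypes, and the highest library of every group was its stroma-richest one (M4, M8, M12 and M16). The log2 hormone difference was -1.16 in control (SE 0.69, adjusted p = 0.33) and 0.06 in cKO (SE 0.69, adjusted p = 0.981). Its promoter, printed above, shares the AP-1 and TATA letters with Mmp7.

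Mmp11 encodes stromelysin-3, a protease that is activated inside the cell by furin-type convertases. Its counts were 319, 122, 187 and 415 in control vehicle and 143, 101, 105 and 195 in control E2/MPA. In cKO they were 209.8, 173, 211 and 372 without hormone and 115, 112, 132 and 154 with E2/MPA. All treated cKO libraries were below all untreated ones, while the control groups overlapped. The log2 difference was -0.83 in control (SE 0.34, 95% interval -1.55 to -0.11, adjusted p = 0.144) and -0.86 in cKO (SE 0.34, 95% interval -1.58 to -0.13, adjusted p = 0.184), so neither passed. Without M2, the lowest control vehicle library, the control value was -1.14 (adjusted p = 0.0296), and without the 6 stroma-rich libraries the cKO value was -0.72 (adjusted p = 0.0158). Mmp11 passed in both genotypes with the stromal marker level as a covariate (adjusted p = 0.00186 in control and 0.00184 in cKO). It also passed in both with libraries 8 numbers apart (M1 with M9 and so on) as a random block (0.0106 and 0.0128), although the labels do not pair these libraries. Mmp11 exons share 155 of 2778 bases with Chchd10 on the opposite strand, and the sources used here do not give the strand setting of the counting.

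Mmp14 and Mmp15 encode membrane-anchored enzymes, and the Mmp14 product (MT1-MMP) is the main activator of pro-MMP2. Mmp14 was 6087, 4768, 5918 and 7979.9 in control vehicle and 4208, 3869, 4738 and 5736 in control E2/MPA. In cKO it was 6544, 7015, 6411 and 6728 without hormone and 5388, 5532, 4939 and 5654 with E2/MPA. The treated cKO libraries were all below the untreated ones, by a small margin relative to Mmp7, and the control groups overlapped. The log2 difference was -0.41 in control (SE 0.14, 95% interval -0.70 to -0.12, adjusted p = 0.0764) and -0.31 in cKO (SE 0.14, 95% interval -0.60 to -0.02, adjusted p = 0.231). In control, Mmp14 passed under DESeq2 (-0.42, adjusted p = 0.0325), without M2 (-0.53, adjusted p = 0.0187), without M12 (-0.52, adjusted p = 0.0192) and without M4, M8, M12 and M16 (-0.38, adjusted p = 0.0315). In cKO it passed with only the cKO groups in the fit (adjusted p = 0.0286) and without the 6 stroma-rich libraries (-0.33, adjusted p = 0.0439). It passed in both with the stromal covariate (adjusted p = 0.00727 in control and 0.033 in cKO) and with the random block (0.00238 and 0.0176). The direction was the same in all of these, and the call was not.

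Mmp15 (MT2-MMP) followed the stromal markers in the opposite sense. Its counts were 362, 2360.3, 1369 and 306 in control vehicle and 599.7, 1479, 1433 and 266 in control E2/MPA. In cKO they were 464, 684, 513 and 352 without hormone and 792, 776, 1147 and 229 with E2/MPA. The lowest library of all 4 groups was its stroma-richest one, and the groups overlapped. The log2 hormone difference was -0.02 in control (SE 0.69, adjusted p = 0.99) and 0.37 in cKO (SE 0.69, adjusted p = 0.832). Without the 6 stroma-rich libraries the cKO value was 0.70 (adjusted p = 0.0484).

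Mmp2 encodes gelatinase A, which is known as a product of fibroblasts. Its counts were 353, 49.7, 16.4 and 1124 in control vehicle, 62.8, 37.8, 29.4 and 598 in cKO vehicle, 449.8, 43.998, 37.2 and 1542 in control E2/MPA, and 67.8, 104, 36.5 and 864 in cKO E2/MPA. The 6 stroma-rich libraries ran from 353 to 1542 and the other 10 from 16.4 to 104, so Mmp2 was the 1 gene of the 9 whose ranges did not overlap by stromal level. The hormone difference was 0.44 in control (SE 1.49, adjusted p = 0.896) and 0.59 in cKO (SE 1.49, adjusted p = 0.885), with intervals more than 3 log2 units wide to each side. With the stromal marker level as a covariate these values were -0.10 (adjusted p = 0.789) and -0.15 (adjusted p = 0.726).

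The inhibitors showed no called hormone difference. Timp1, a secreted inhibitor that also has growth factor activity, ran from 385 to 1528 in control vehicle, 295 to 754 in control E2/MPA, 401 to 724 in cKO vehicle and 321 to 805 in cKO E2/MPA. Timp2, which inhibits MMPs and also takes part with MT1-MMP in activating pro-MMP2, ran from 669 to 1631, 508 to 2129.9, 593 to 1118 and 696 to 1499 in the same order. Timp3, the inhibitor that stays bound to matrix, ran from 22.9 to 521, 29.0 to 811, 26.9 to 176 and 20.2 to 174. All ranges overlapped, and Timp1 and Timp3 were highest in the stroma-richest library of every group. The log2 hormone differences in control and cKO were -0.54 and -0.14 for Timp1 (adjusted p = 0.487 and 0.913), -0.0028 and 0.24 for Timp2 (adjusted p = 0.998 and 0.817), and 0.17 and 0.12 for Timp3 (adjusted p = 0.951 and 0.974). With the stromal level as a covariate Timp1 in control was -0.68 (adjusted p = 0.00777). Timp3 exons share 1733 of 8144 bases with Syn3 on the opposite strand, which was itself counted at 46.7 to 103, so Timp3 levels in the 10 other libraries (20.2 to 83.7) cannot be fully assigned.

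**Figure D2:**
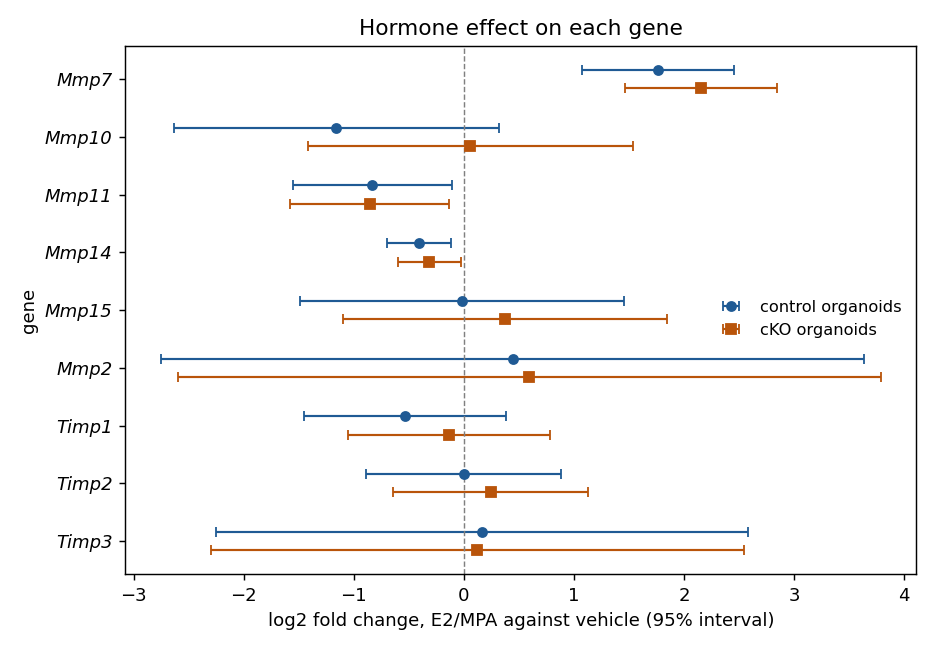
Log2 fold change of E2/MPA against vehicle for each of the 9 genes, in control (circles) and cKO (squares) organoids, with 95% intervals from the limma fit and a dashed line at 0. Mmp7 sits at 1.76 and 2.15, Mmp11 and Mmp14 have intervals below 0 in both genotypes before adjustment, and the other 6 genes have intervals that include 0.

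Counted over the set, 0 of the 8 genes other than Mmp7 passed for the hormone effect in control, beside 8.9% of all genes tested, and 0 of 8 passed in cKO, beside 4.19%. At an unadjusted p under 0.05 there were 2 of 8 in each genotype, Mmp11 and Mmp14 in both, beside 23.9% of all genes tested in control and 18.6% in cKO. edgeR called 0 in each, beside 9.07% of all genes in control and 4.11% in cKO. DESeq2 called 1 in control (Mmp14), beside 13.2% of all genes, and 0 in cKO, beside 7.71%. The median log2 difference of the 8 genes was -0.21 in control and 0.09 in cKO, against -0.00077 and -0.0039 over all genes tested. In cKO, Mmp11 and Mmp14 were lower without overlap, a pattern held by 5.8% of genes, and in control 0 of the 8 were, beside 5.49%. No test of the set as a whole was made.

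These counts moved with the handling of stromal level. With the stromal level as a covariate, a setting chosen after seeing the data, 4 of 8 genes passed in control (Mmp10, Mmp11, Mmp14 and Timp1) and 2 of 8 in cKO (Mmp11 and Mmp14). The same setting called 25% of all genes tested in control and 17.7% in cKO. The random block gave 2 of 8 in each genotype (Mmp11 and Mmp14), beside 27.1% and 18.8% of all genes. All members called with the covariate or the block were lower after hormone. The covariate includes Postn, which was itself higher after hormone in control, so it is not independent of treatment. Dropping the 6 stroma-rich libraries, 0 of 8 passed in control and 3 of 8 in cKO (Mmp11 and Mmp14 lower, Mmp15 higher), beside 13.7% and 13.9% of all genes. Leaving out M2 gave 2 of 8 in control (Mmp11 and Mmp14), beside 10.7%, and leaving out M12 gave 1 (Mmp14), beside 13.5%.

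**Figure D3:**
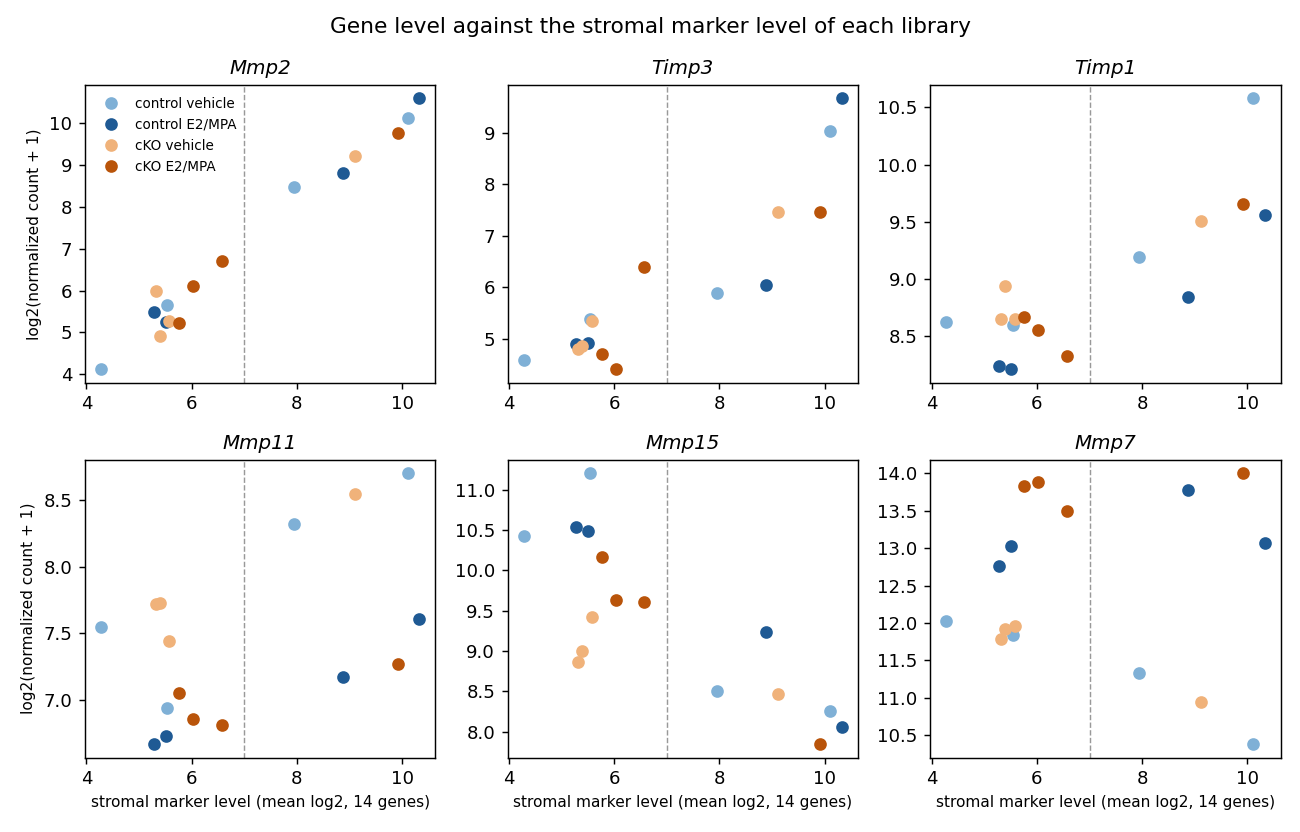
Log2(normalized count + 1) of 6 of the genes against the mean log2 level of 14 stromal markers, 1 point per library, coloured by group, with a dashed line at 7. Mmp2 separates the 6 libraries right of the line from the 10 left of it, Mmp15 lies lower on the right, and the Mmp7 values of treated and untreated libraries stay apart on both sides of the line.

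The genotype comparison asks whether organoids labelled Tgfbr2 cKO differ from control under the same treatment, and the set was not chosen on it. No gene of the 9 passed under vehicle (0 of 9, beside 0% of the 16509 genes tested). With hormone the count was also 0 of 9, beside 0.00606%. At an unadjusted p under 0.05 there were 0 of 9 in both, beside 5.96% (984) and 10.9% (1794) of all genes. edgeR and DESeq2 also called 0 of 9. Of all genes edgeR called 0% under vehicle and 0.00606% under E2/MPA, and DESeq2 0.0848% and 1.17%. The median log2 difference of the 9 genes was -0.31 without hormone and 0.09 with it, against 0.0010 and -0.0091 over all genes. Control and cKO libraries overlapped for all 9 genes under both treatments. Over all genes, 1.64% were higher and 1.37% lower in cKO without overlap under vehicle, and 3.82% and 2.35% under E2/MPA.

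Mmp7 was 0.25 higher in cKO than in control under vehicle on the log2 scale (SE 0.32, 95% interval -0.44 to 0.94, adjusted p = 0.946), and this value was -0.08 without M4. Under E2/MPA it was 0.64 higher (SE 0.32, 95% interval -0.05 to 1.33, adjusted p = 0.503). Of the control E2/MPA libraries, 3 were below all 4 cKO libraries and the stroma-rich M9, at 14016, was within the cKO range. In the 10 other libraries the difference was 0.84 (adjusted p = 0.00303), with 2 control and 3 cKO libraries, a setting that called 8.44% of all genes. Mmp14 under E2/MPA was 0.23 higher in cKO (SE 0.14, adjusted p = 0.58). Mmp15 under vehicle was 0.66 lower in cKO (log2 difference -0.66, SE 0.69, adjusted p = 0.939), and without the 6 stroma-rich libraries it was -1.72 (adjusted p = 0.00491), where 3.59% of all genes were called: the control libraries M2 and M3 were at 2360.3 and 1369, and M5, M6 and M7 at 464 to 684.

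The interaction asks whether the hormone effect differs between genotypes. It passed for 0 of 9 genes, beside 0% of all genes, and with edgeR and DESeq2 also for 0 of 9. At an unadjusted p under 0.05 there were 0 of 9, beside 1.87% (309) of all genes. For Mmp7 the hormone difference was 0.39 larger in cKO (SE 0.46, 95% interval -0.59 to 1.36, adjusted p = 1.00). For Mmp14 the interaction was 0.10 (SE 0.19, 95% interval -0.32 to 0.51, adjusted p = 1.00). The Mmp7 interval admits a hormone effect that is smaller in cKO as well as one that is larger.

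Levels of different genes were compared per kilobase of exon. The length was that of all GENCODE M21 exons of a gene, with overlapping bases counted once. Where the expressed transcript is shorter than this, the level per kilobase is understated. The order of genes and the shares below depend on this choice. Mmp7 was highest in all 4 groups, at 2756 ± 1186 normalized counts per kilobase in control vehicle, 3125 ± 875 in cKO vehicle, 8889.7 ± 2903 in control E2/MPA and 13498 ± 1931 in cKO E2/MPA (SD, n = 4). Mmp14 followed at 778 to 1120 (group means), then Timp1 at 508 to 813, Timp2 at 228 to 275 and Mmp15 at 93.3 to 204. Mmp7 and Mmp14 overlapped in control vehicle, where M4 had more Mmp14 than Mmp7, and were apart in the other 3 groups. In both treated groups Mmp14, Timp1, Timp2, Mmp15 and Mmp2 each overlapped with the next in the order. In cKO vehicle Mmp14, Timp1, Timp2 and Mmp15 stood apart from one another, and in control vehicle Timp1 stood apart from Timp2. Mmp10 and Timp3 were the 2 lowest genes in every group, at 8.12 to 28.7 per kilobase.

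Mmp7 made up 62.8% ± 16.2 of the summed level of the 6 MMPs per kilobase in control vehicle and 87.8% ± 3.73 in control E2/MPA, and 68.4% ± 9.40 and 91.9% ± 1.06 in cKO (SD, n = 4). The Mmp14 share was 26.3% ± 11.5 and 8.13% ± 2.17 in control, and 25.6% ± 5.21 and 6.24% ± 1.01 in cKO. The lowest Mmp7 shares were those of M4 (39.4%) and M8 (54.3%), the stroma-richest vehicle libraries. The summed level of the 6 MMPs was 4227 ± 945 and 10054 ± 2860.2 in control, and 4494 ± 768 and 14673 ± 1981 in cKO. The summed level of the 3 TIMPs was 1075 ± 760.0 and 802 ± 479 in control, and 804 ± 212 and 821 ± 330.0 in cKO, with overlapping libraries. These sums rest on the Mmp7 difference that chose the set and have no test.

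**Figure D4:**
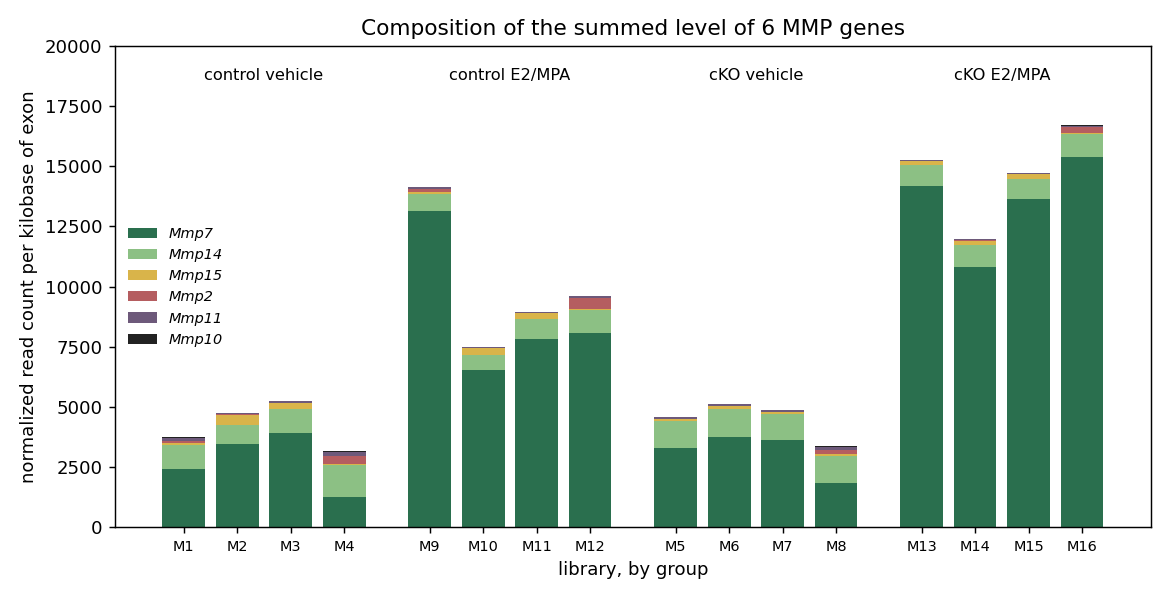
Summed level of the 6 MMP genes in each library, in normalized read counts per kilobase of exon, stacked by gene and ordered by group. Mmp7 fills 39.4% to 74.6% of the bar in vehicle libraries and 83.9% to 92.8% in E2/MPA libraries, and Mmp2 is visible mainly in M4, M8, M12 and M16.

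The genes whose pattern over the 16 libraries was most like each member were taken by Pearson correlation of log2(value + 1) among 11094 genes with a mean of at least 50. These r values are descriptions: the libraries share treatment and stromal content. For Mmp7 they were Lcn2, an epithelial iron-carrier protein known as lipocalin-2 (r = 0.973), Cmpk1 (r = 0.945) and Btg2 (r = 0.940). Lcn2 ran from 15417 to 64093 in vehicle and from 73126 to 154501 in E2/MPA libraries. For Mmp2 they were Sparc (r = 0.989) and the collagen genes Col1a2 (r = 0.988) and Col5a1 (r = 0.987), which are stromal matrix genes. For Mmp11 they were Fzd7 (r = 0.974), a Wnt receptor, Smo (r = 0.967), the hedgehog signal transducer, and March4 (r = 0.967). For Mmp15 they were Tgfb2 (r = 0.960), which encodes a ligand of the receptor that the cKO targets, Ikzf3 (r = 0.957) and Brcc3 (r = 0.939). Tgfb2 ran from 113 to 200.1 in M1, M4, M8, M12 and M16, was higher in each of the others, and reached 6769.8 in M10. For Mmp14 they were Ehd2 (r = 0.936), Pdlim7 and Cct6a, for Mmp10 Tm9sf3 (r = 0.941), Ppp1cb and Qk, for Timp1 Map4k4 (r = 0.959) and Atp8b2, for Timp2 Fgf18 (r = 0.944), Arpc5 and Cdk18, and for Timp3 Dnaja1 (r = 0.953), Dmpk and Capza2.

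Among other genes of the MMP family and Timp4, 10 of 18 were tested and 1 of 10 fell in control, beside 3.51% of all genes that fell, with 0 rising. That gene was Mmp13, which encodes collagenase-3 and lies at the far end of the chromosome 9 cluster from Mmp7, named after its value was seen. It was 446, 349.9, 362 and 894 in control vehicle and 172, 244, 207 and 262 in control E2/MPA, with no overlap (log2 difference -1.11, adjusted p = 0.0415). The call was lost without any of M1, M4, M6, M7, M9, M10, M11, M14 and M15 (adjusted p up to 0.106) and without the 6 stroma-rich libraries (adjusted p = 0.083). In cKO limma called 0 of 10, beside 4.19% of all genes, and the Mmp13 difference was -0.77 (adjusted p = 0.207). At an unadjusted p under 0.05 there was 1 of 10 in cKO, beside 18.6% of all genes. edgeR and DESeq2 called 0 of 10 in cKO, beside 4.11% and 7.71% of all genes. The median log2 difference of the list was -0.67 in control and -0.37 in cKO. The 2 most abundant genes of this list, Mmp23 (498 ± 106 to 632 ± 55.8 over the groups) and Mmp19, did not pass. Mmp19 was 990.5 and 2571 in M1 and M4 against 112 and 66.3 in M2 and M3.

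Among the related ADAM and ADAMTS proteases, which shed cell-surface proteins or cut proteoglycans, 21 of 25 were tested. In control 3 of 21 rose, beside 5.39% of all genes, and 1 fell, beside 3.51%. In cKO 1 of 21 rose, beside 2.71% of all genes, and 0 fell. Adam15, a membrane-bound ADAM, rose in both: from 526 ± 60.5 to 811 ± 101 in control (log2 difference 0.62, adjusted p = 0.00144) and from 506 ± 29.0 to 709 ± 37.4 in cKO (0.49, adjusted p = 0.0114). Adamts8 rose in control from 6.51 ± 9.59 to 107 ± 74.1 (4.63, adjusted p = 0.0079), and its treated libraries were lowest in the stroma-rich M9 and M12. Adam33 rose in control from 310.0 ± 235 to 1077 ± 435 (2.04, adjusted p = 0.0258) and Adam28 fell from 505 ± 95.1 to 297 ± 74.4 (-0.78, adjusted p = 0.0252). Adam33 did not pass (adjusted p up to 0.0926) when any of M1, M4, M9, M10 and M11 was left out, and Adam28 (up to 0.0932) when any of M1, M4, M10 and M11 was. The cKO differences had the same directions and were not called. They were 2.18 for Adamts8 (adjusted p = 0.237), 1.48 for Adam33 (adjusted p = 0.136) and -0.62 for Adam28 (adjusted p = 0.0982). In the 10 libraries that were not stroma-rich, 3 of 21 rose in control and 5 of 21 in cKO, beside 7.94% and 8.18% of all genes. The median of the list was -0.13 in control and 0.09 in cKO.

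Among genes that activate MMPs or control them at the cell surface, 22 of 25 were tested, and 1 rose and 2 fell in control, beside 5.39% and 3.51% of all genes. In cKO limma called 0 of 22, beside 4.19% of all genes. At an unadjusted p under 0.05 there were 4 of 22 in cKO, beside 18.6% of all genes. edgeR called 0 of 22 in cKO and DESeq2 1, beside 4.11% and 7.71% of all genes. The median log2 difference was -0.29 in control and -0.01 in cKO. Pcsk7, a proprotein convertase, rose from 828.7 ± 88.0 to 1015 ± 48.0 (log2 difference 0.30, adjusted p = 0.0169). Furin, the convertase that removes the propeptide of MMP11 and membrane-type MMPs, fell from 8802 ± 1346 to 6124 ± 522 (-0.51, adjusted p = 0.0194). Plat, tissue plasminogen activator, fell from 39484 ± 4904 to 27265 ± 3184 (-0.53, adjusted p = 0.0248). These calls were lost without M1 or M10 for Pcsk7 (adjusted p up to 0.0625), without M1, M4 or M10 for Furin (up to 0.0701) and without M1, M3, M10 or M11 for Plat (up to 0.0935). In those 10 libraries Pcsk7 (adjusted p = 0.192) and Furin (adjusted p = 0.113) did not pass and Plat did (adjusted p = 0.0117). The cKO differences, with all libraries, had the same directions and were not called. They were 0.16 for Pcsk7 (adjusted p = 0.236), -0.30 for Furin (adjusted p = 0.207) and -0.42 for Plat (adjusted p = 0.105).

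Among known substrates of matrilysin, 11 of 12 were tested, 0 rose and 2 fell in control, and 0 rose and 1 fell in cKO. Of all genes 3.51% fell in control and 1.48% in cKO. Fn1, which encodes fibronectin, fell from 27586 ± 16778 to 8461 ± 7853 in control (log2 difference -1.92, adjusted p = 0.0446) and from 17644 ± 6959 to 4167 ± 2675 in cKO (-2.16, adjusted p = 0.0416). In control the call was lost without any of M1, M4, M5, M7, M9, M10, M11, M13, M14 and M15 (adjusted p up to 0.148), and in cKO without any of M1, M5, M7, M8, M9, M13, M14 and M15 (up to 0.126). With edgeR the adjusted p was 0.0891 in control and 0.0685 in cKO, and without the 6 stroma-rich libraries 0.0013 and 0.000189. Igfbp3, an IGF-binding protein, fell in control from 1844 ± 829.6 to 764 ± 402 (-1.31, adjusted p = 0.0307), a call lost (adjusted p up to 0.107) when any of M1, M4, M9, M10 and M11 was left out. Its cKO difference was -1.04 (adjusted p = 0.117). Without the 6 stroma-rich libraries 5 of 11 fell in control and 4 of 11 in cKO, beside 5.77% and 5.68% of all genes. The median of the list was -0.37 in control and -0.16 in cKO.

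Among transcription factors known to act on MMP genes, 19 of 20 were tested, 1 rose and 2 fell in control, and 1 rose and 0 fell in cKO. Of all genes 5.39% rose and 3.51% fell in control, and 2.71% and 1.48% in cKO. Ehf, an epithelial ETS factor, rose from 1623 ± 837 to 3545 ± 871 in control (log2 difference 1.25, adjusted p = 0.0178) and from 1271 ± 187 to 3051 ± 294 in cKO (1.27, adjusted p = 0.0274). Ctnnb1, which encodes beta-catenin, fell in control from 18907 ± 932 to 14264 ± 900 (-0.41, adjusted p = 0.00475), and Junb, an AP-1 subunit, fell from 4942 ± 909 to 3247 ± 489 (-0.60, adjusted p = 0.0178). The Ctnnb1 call in control held without each library in turn. The cKO differences were -0.26 for Ctnnb1 (adjusted p = 0.0737) and -0.35 for Junb (adjusted p = 0.206), in the same direction and not called. The Ehf and Junb calls in control were lost without M1, M10 or M11 (adjusted p up to 0.0663 and 0.0685), and the Ehf call in cKO (adjusted p up to 0.087) without any of M5, M7, M8, M13, M14 and M15. With only the 2 control groups in the fit, Adam15 was still called (adjusted p = 0.0353), and of the other genes named from these 5 lists the control calls were lost. Over the 10 libraries that were not stroma-rich 6 of 19 fell in control and 5 of 19 in cKO, beside 5.77% and 5.68% of all genes. The median of the list was -0.36 in control and -0.21 in cKO.

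No gene of these 5 lists passed limma for genotype or for the interaction. Over the whole table limma and edgeR each called 0 genes for genotype under vehicle, 1 with hormone and 0 for the interaction, and DESeq2 called 14, 193 and 0.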

How the data were processed

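RNA-seq of 16 libraries of mouse endometrial epithelial organoids (4 groups of 4) was analysed from 1 deposited table. The deposited values are a signal, in which the authors scaled gene read counts by 1 size factor for each library. Per the submitters' processing notes, HISAT2, featureCounts, DESeq2 and GRCm39 were used, without versions. The size factor of each library was inferred here by taking its smallest value above 0 as 1 read. Multiplied by this factor, every value gave a whole read within 0.01 read (100% in every library). The recovered reads, and the tests run on them, rest on this inference. Symbols came from GENCODE M21 names for 22484 genes, matched on Ensembl identifiers. Values were analysed as log2(value + 1), which understates changes of low genes. The 16509 genes with at least 10 in at least 4 libraries entered 1 limma fit (limma 3.58.1, R 4.3.3) of all libraries, with group means and a trended prior variance. The 5 contrasts were two-sided, with Benjamini-Hochberg adjustment over all genes tested and a threshold of 0.05. Adjusted p-values are from limma unless another tool is named. The fit was tried on simulated independent counts with the same dispersion for every gene. That simulation had no stromal variation and no pairs, so it does not cover the spread seen in these libraries. edgeR 4.0.16 and DESeq2 1.42.0 were run on the recovered counts. The members and gene lists were chosen with earlier results of these data known. Genes named from a list were up to 4 called genes with the lowest adjusted p in a hormone contrast, or the 2 most abundant where fewer than 2 were called. Of the 3 genes most alike to each member, 1 is not reported here. Markers of smooth muscle (summed level 37.0 to 2315), endothelium (26.3 to 545), macrophages and leukocytes (11594 to 35433) and mesothelium (4235 to 8691) were also checked. By summed level those of smooth muscle, endothelium and mesothelium were highest in the stroma-richest library of every group. By mean log2 level the macrophage and leukocyte markers were 9.26 in M4 and 9.89 in M12. They were between 6.11 (M8) and 7.74 (M11) in the other libraries.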

Additional observations from a re-analysis of the deposited data

Results flagged for a closer look

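In groups of 4 libraries, 7 of 36 gene and group combinations had 1 library far from the other 3. For independent, normally distributed values chance flags about 1 in 20 groups (1.8 of 36). Here untransformed normalized counts were used and the combinations share the same 16 libraries, so 1.8 is only a rough guide. All 7 were high values in a stroma-richest library. Mmp2 was 598 in M8 and 864 in M16. Mmp10 was 72.8 in M8. Timp2 was 1631 in M4. Timp3 was 521 in M4, 176 in M8 and 811 in M12. The stromal marker level of these libraries was 10.11 in M4, 9.11 in M8, 10.33 in M12 and 9.91 in M16, and the part of stromal RNA in these values was not tested.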

How the results depend on the processing

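The labels give every library its own number and pair none. Stromal levels were alike in some libraries 8 numbers apart (7.95 in M1 and 8.88 in M9, 10.11 in M4 and 10.33 in M12, 9.11 in M8 and 9.91 in M16). Some likeness lay outside the stroma-rich libraries. Within cKO, Cdk18 was highest of its group in M6 (1640) and M14 (1660). Within control, Tgfb2 was highest in M2 (3769) and M10 (6769.8), but within cKO in M6 and M15. The sources used here do not say whether libraries 8 numbers apart came from the same organoids. The limma fit of all libraries used no pairs, so its hormone intervals and adjusted p-values may differ if these are pairs. A random block on these numbers raised the genes called for hormone from 1469 to 4479 in control and from 692 to 3098 in cKO. Another 10 settings, 16 fits without 1 library each and 4 settings chosen after seeing the data (both removals of stroma-rich libraries, the covariate and the block) were run. The hormone difference of Mmp7 was positive throughout: 0.96 to 1.82 in control (1.43 to 1.98 leaving out 1 library) and 1.85 to 2.22 in cKO (1.92 to 2.26). Counts of members called are given next, with the share of all genes tested that was called in brackets. For the hormone effect in control the number of other members called was 0 (8.9%). It became 1 with DESeq2 (13.2%), 1 with library weights (15.4%) and 1 without M4, M8, M12 and M16 (13.4%). It was 4 with the stromal level as a covariate (25%), 2 with the random block (27.1%) and 0 to 2 without 1 library (4.6% to 13.5%). In cKO it was 0 (4.19%), and became 1 with only the 2 groups compared (5.32%). It was 3 there without the 6 stroma-rich libraries (13.9%), 2 with the covariate (17.7%) and 2 with the block (18.8%). For genotype, over all 9 members, it was 0 (0% under vehicle and 0.00606% under E2/MPA). Without the 6 stroma-rich libraries it became 1 under vehicle (3.59%) and 1 under E2/MPA (8.44%). With the block, Mmp11 (adjusted p = 0.0106 in control, 0.0128 in cKO) and Mmp14 (0.00238 and 0.0176) were the genes called. The other fits left these counts at 0, and no alternative called a member for the interaction.

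Directions that turned belonged to differences that were not called. In control, Timp2 was 0.12 with edgeR and 0.13 with DESeq2, Mmp15 was 0.040 without M4, M8, M12 and M16 and 0.21 with the covariate, Timp3 was -0.064 without the 6 libraries and -0.22 with the covariate, and Mmp2 was -0.10 with the covariate. In cKO, Mmp10 was -0.026 with a pseudocount of 5, -0.58 with edgeR, -0.57 with DESeq2 and -0.22 with the covariate, Mmp2 was -0.15 and Timp3 -0.39 with the covariate. The genotype difference of Mmp7 under vehicle was -0.051, and the interaction of Mmp14 -0.022, without the 6 libraries. Leaving out 1 library, the ranges that crossed 0 were, in control, -0.58 to 1.46 for Mmp2, -0.47 to 0.52 for Mmp15, -0.43 to 0.29 for Timp2 and -0.93 to 1.10 for Timp3. In cKO they were -0.34 to 1.55 for Mmp2, -0.44 to 0.81 for Mmp10, -0.42 to 0.054 for Timp1 and -0.45 to 0.74 for Timp3. Genotype directions were followed only for Mmp7 and Mmp15 under vehicle and for Mmp7 and Mmp14 under E2/MPA. Interaction directions were followed only for Mmp7 and Mmp14. Among these, the ranges that crossed 0 were -0.084 to 0.49 for the genotype difference of Mmp7 under vehicle and -0.035 to 0.21 for the interaction of Mmp14. Whether genotype and interaction directions of the other members turned was not examined. Causes were not tested.

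Of all genes called for the hormone effect, the share that was higher was 60.6% in control and 64.6% in cKO. It was 48.5% and 54.7% after quantile normalization and 53.3% and 52.1% after upper-quartile rescaling. No scaling moved the median of all genes by 0.1 (log2), and no member was called under either. Mmp10 was not tested with a filter of at least 50. Mmp10, at 4.49 to 72.8 normalized counts, had the lowest counts of the set.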
